A study of Oryza sativa with 9 samples.

Results

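A total of 126 probe sets were graded across the 3 genotypes of this rice experiment, with all OE arrays above all WT arrays and all WT arrays above all RNAi arrays. A probe set is the group of short probes on an Affymetrix GeneChip that usually reads 1 transcript, although some probe sets share probes between transcripts. Its value here is a log2 signal, so a difference of 1 is 2-fold. The members were chosen by 3 conditions: the lowest OE array lay above the highest WT array, the lowest WT array lay above the highest RNAi array, and the OE mean exceeded the RNAi mean by at least 0.8. Genes named DREB, CBF, JAZ, WRKY, MADS, MCM or CIGR were left out. Of the 57194 probe sets that are not controls, 590 kept the order at any size (1.03%), 132 of those also reached the size, and 6 of the 132 were left out by name. The 126 that remained are 0.22% of all probe sets. Since the same values chose the members, the levels and differences given for them are a description and carry no test.

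The arrays measured leaf RNA of 21-day-old seedlings grown in liquid culture without stress, with 3 arrays per group and 9 in all. OE plants carried the full-length cDNA of OsHMGB707 behind the CaMV 35S promoter, RNAi plants carried a hairpin of an OsHMGB707 segment behind a ubiquitin promoter, and WT plants were untransformed. All groups share the japonica background Zhonghua11, and each replicate was a pool of seedlings. Both constructs were selected with hygromycin, the vectors differed, and no transformed control was among the arrays. The labels do not name the transformed line, so each group of transgenic plants may descend from 1 insertion. Insertion, vector and selection therefore cannot be told apart from the construct's target in the values below.

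OsHMGB707 encodes a protein of the high mobility group B family. These are abundant chromatin proteins that are not histones. They bind DNA with little preference for sequence through the HMG box, bend it, and are known to alter the access of other factors to promoters. In plants, members of the family have been studied for their part in responses to drought, salt and cold.

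OsHMGB707 itself did not read higher on the arrays labelled OE than on those labelled WT. The brighter probe set of OsHMGB707 (LOC4336676, chromosome 4) read 12.25, 12.28 and 12.37 on the arrays labelled OE, 10.31, 10.43 and 10.03 on those labelled RNAi and 12.39, 12.38 and 12.38 on those labelled WT. The RNAi mean was 2.13 below WT, while the OE mean was 0.09 below WT (limma adjusted p = 0.703). The dimmer probe set of the gene averaged 6.32 in OE, 6.15 in RNAi and 6.58 in WT. On it neither OE nor RNAi was called different from WT (limma adjusted p = 0.419 and 0.286). OsHMGB707 was thus not graded in the way of the 126 members. Where its probes lie relative to the introduced cDNA was not known here. By qPCR, the paper reports higher OsHMGB707 expression in several overexpression lines than in WT. Which of those lines was put on the arrays is not given. OE below means the arrays labelled OE. The arrays otherwise resembled each other, with correlations over probe sets of 0.992 to 0.998 within groups and 0.988 to 0.995 between groups, and array medians between 5.89 and 5.94.

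Among the members, the OE mean exceeded the RNAi mean by a median of 0.99 (quartiles 0.88 and 1.24, range 0.81 to 4.10). In 59 members the difference was over 2-fold and in 7 it was over 4-fold. Some of these 7 had RNAi means below the arrays' lower quartile, where the scale is compressed, so the size of their differences is uncertain. They are the beta-amylase, the retrotransposon and a probe set of LOC4335780, all described below. Most of these transcripts carried no gene name. The platform annotation gave a gene for 72 of the 126 probe sets, from 63 genes, and no gene for 54. Only 8 of the 63 genes, on 11 probe sets, had a name other than a locus number. The study's own annotation was read from its lists of genes changed against WT, which were made from these same data and do not cover the whole array. It described 12 members, of which 6 had no listed gene, so that 48 members had no annotation from either source. A gene was listed more often for the members than for all probe sets, at 57.1% against 39.2%.

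The member with the widest span had no annotation. It read 11.67, 11.33 and 11.25 on the OE arrays, 6.91, 7.49 and 7.57 on the RNAi arrays and 9.09, 8.43 and 8.60 on the WT arrays. The OE mean was 17.1-fold above the RNAi mean, and each step was large, at 2.71 above WT in OE and 1.39 below WT in RNAi. The SDs were 0.22 in OE, 0.36 in RNAi and 0.34 in WT (n = 3 each).

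The annotated members included enzymes that act on sugars and glycans, grouped here after their values were seen. OsTPP1 (LOC4330221, chromosome 2), a trehalose-6-phosphate phosphatase that converts a sugar signal into trehalose, read 9.95, 10.03 and 10.03 in OE, 8.39, 7.99 and 7.37 in RNAi and 8.97, 9.14 and 9.27 in WT. The OE arrays of OsTPP1 lay close together (mean 10.003 ± 0.049, SD, n = 3), while the RNAi arrays were spread (7.92 ± 0.51) and the WT arrays lay between (9.13 ± 0.15). Its mean was 4.25-fold higher in OE than in RNAi, and the step in RNAi (1.21 below WT) was larger than that in OE (0.87 above WT).

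A beta-amylase (LOC_Os07g35940 in the study's annotation), an enzyme that releases maltose from starch, read 8.44, 5.74 and 9.59 in OE, 4.35, 4.40 and 3.71 in RNAi and 4.46, 4.82 and 4.79 in WT. Its OE mean was 3.77 above the RNAi mean on the log2 scale, a difference that became 4.86 without OE replicate 2 and 2.94 without OE replicate 3. This was the only member whose OE arrays had an SD over 0.5 (1.98): replicates 1 and 3 were high and replicate 2 was nearer to WT. Its RNAi arrays lay near the lower quartile of the arrays (4.33 to 4.41), where the scale is compressed, and the highest of them was just under the lowest WT array.

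LOC4335780 on chromosome 4, which the study annotates as a family 17 glycosyl hydrolase (LOC_Os04g33640), a class that holds the plant glucanases, supplied 4 members. The brightest of them read 8.02, 8.16 and 8.10 in OE, 6.72, 6.85 and 6.69 in RNAi and 7.40, 7.07 and 7.30 in WT. A second member of the gene read 7.70, 7.81 and 7.75 in OE, 5.95, 5.81 and 5.75 in RNAi and 6.53, 6.36 and 6.53 in WT. OE exceeded RNAi by 2.08, 1.91, 1.34 and 1.24 across the 4 probe sets, and the direction was set by the rule. The probe set with 2.08 read 3.26, 3.25 and 3.81 in RNAi, below the arrays' lower quartile, so the size of its difference is uncertain. These probe sets are listed for the same gene and are not independent of each other. The only other probe set of the gene was dim and flat, with means of 3.81 in OE, 3.83 in RNAi and 3.90 in WT.

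BGLU3 (LOC4327593, chromosome 1), a beta-glucosidase, which splits glucose from small glycosides, was graded on all 3 of its probe sets. The brightest read 10.22, 10.30 and 10.32 in OE, 9.36, 9.39 and 9.38 in RNAi and 9.75, 9.47 and 9.68 in WT, a difference of 0.90 between OE and RNAi. For the other probe sets of BGLU3 the difference was 0.83 in each case. The highest RNAi array lay 0.077 below the lowest WT array on the brightest one, and 0.045 and 0.132 below it on the others. The margin on that side was thus small.

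Other annotated members belong to signalling and defence. LOC4341380 on chromosome 6, annotated by the study as a receptor-like kinase (LOC_Os06g38340), a membrane protein that passes outside signals into the cell, read 9.26, 9.09 and 9.30 in OE, 7.65, 7.52 and 6.60 in RNAi and 8.07, 8.55 and 8.24 in WT. RNAi replicate 3 was well below the other RNAi arrays. OE exceeded RNAi by 1.96 and the 2 steps were similar, at 0.93 above WT in OE and 1.03 below WT in RNAi. Neither step of LOC4341380 was called different from WT in the limma fit.

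CPK4 (also CDPK1, LOC4328155, chromosome 2), a calcium-dependent protein kinase, read 10.82, 10.97 and 10.84 in OE, 9.76, 9.88 and 9.97 in RNAi and 10.18, 10.23 and 10.40 in WT. HSFA3 (also HSF07, LOC4329526, chromosome 2), a heat stress transcription factor of class A, read 9.62, 9.59 and 9.74 in OE, 8.67, 8.64 and 8.61 in RNAi and 9.001, 8.948 and 9.096 in WT. OE exceeded RNAi by 1.01 for each of these genes, with group SDs of at most 0.12, and the OE step was the larger for both. OE was 0.60 above WT for CPK4 and 0.64 above WT for HSFA3, and the RNAi values minus WT were -0.40 and -0.38.

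LOC4350103 on chromosome 11, which the study annotates as a disease resistance family protein (LOC_Os11g11550), was contradictory between its own probe sets. The member read 7.84, 7.66 and 7.77 in OE, 5.88, 5.93 and 5.62 in RNAi and 6.25, 6.24 and 6.18 in WT, so that OE exceeded RNAi by 1.94. Of its other probe sets, one averaged 7.90 in OE, 9.14 in RNAi and 8.94 in WT, and the other averaged 7.60 in OE, 9.30 in RNAi and 9.12 in WT. On these probe sets OE was 1.24 and 1.70 below RNAi, the opposite of the member, and no direction can be given for the gene as a whole.

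Among metabolic enzymes, GLT2 and OsRIBA2 differed by 0.96 and 0.92 between OE and RNAi, near the size limit of the rule. GLT2 (LOC4339561, chromosome 5), a glutamate synthase that uses NADH and works in the assimilation of ammonium, read 10.96, 10.92 and 10.82 in OE, 9.81, 9.90 and 10.10 in RNAi and 10.24, 10.17 and 10.37 in WT. OsRIBA2 (LOC4329733, chromosome 2), from the riboflavin synthesis pathway, read 10.14, 10.30 and 10.26 in OE, 9.28, 9.29 and 9.37 in RNAi and 9.81, 9.78 and 10.03 in WT. The gene pair differs in balance: GLT2 stood 0.64 above WT in OE and 0.33 below in RNAi, whereas OsRIBA2 stood 0.36 above WT in OE and 0.56 below in RNAi. A member annotated by the study as cytochrome P450 71D6 (LOC_Os06g43510), with no listed gene, read 6.43, 6.27 and 6.63 in OE, 5.20, 5.10 and 5.06 in RNAi and 5.50, 5.29 and 5.49 in WT, with most of its span in OE.

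A retrotransposon and an Argonaute gene were among the members. A probe set annotated by the study as a Ty1-copia retrotransposon (LOC_Os01g26240), an element that copies itself through RNA, read 6.48, 6.39 and 6.39 in OE, 4.33, 3.95 and 3.67 in RNAi and 5.28, 5.36 and 5.36 in WT. The OE mean was 1.09 above WT. The RNAi arrays lay at or below the arrays' lower quartile, where the scale is compressed, so no fold against them is given. On the log2 scale as deposited, this probe set and the unannotated member of widest span were the 2 members that passed a difference of 1 on both sides of WT. A second probe set of the same design number was also a member, with OE 1.38 above RNAi. AGO17 (LOC4328436, chromosome 2), of the Argonaute family that binds small RNAs, read 6.38, 6.22 and 6.09 in OE, 5.45, 5.18 and 5.49 in RNAi and 5.99, 5.87 and 6.04 in WT. Its OE arrays nearly touched the WT arrays, with a step of 0.26 in OE against 0.60 in RNAi.

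The remaining named gene was OsMac1 (LOC4342119, chromosome 6), which was a member on 2 of its 4 probe sets. The first read 8.16, 8.00 and 8.12 in OE, 7.04, 6.87 and 6.74 in RNAi and 7.39, 7.28 and 7.46 in WT, a difference of 1.21 between OE and RNAi. The second member differed by 0.94, and the other probe sets of OsMac1 by 1.17, without keeping the order, and by 0.65. All of its probe sets were thus higher in OE than in RNAi.

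**Figure D1:**
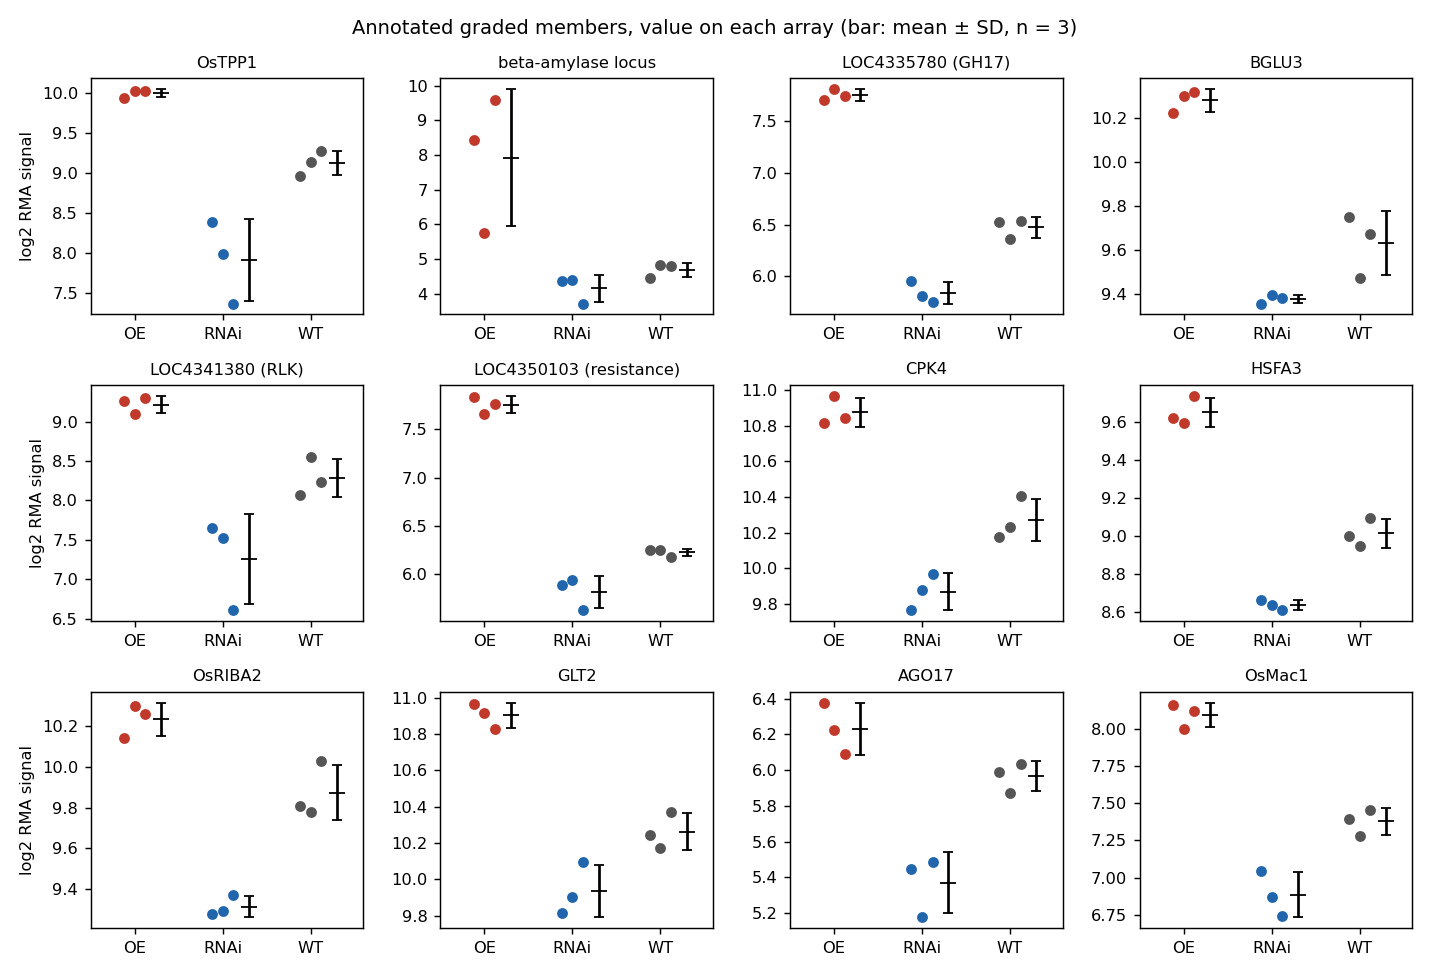
Log2 signal of named and study-annotated members on each array, with OE, RNAi and WT in separate colours and a bar at each group's mean ± SD (n = 3). The vertical axis differs between panels. The order OE, WT, RNAi was set by the choice of members. The wide OE spread of the beta-amylase and the narrow OE spread of OsTPP1 stand out.

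Other members had a locus number but no gene name, and their order was likewise set by the rule. A locus called an expressed protein in the study's annotation (LOC_Os07g05260) read 7.32, 6.87 and 7.29 in OE, 4.88, 4.79 and 4.60 in RNAi and 5.20, 5.03 and 5.31 in WT. LOC4351031 on chromosome 11 (LOC_Os11g42930) read 6.12, 5.94 and 6.02 in OE, 4.25, 3.85 and 4.05 in RNAi and 4.64, 4.68 and 4.49 in WT. In both of these loci the OE step was the larger, at 1.98 for LOC_Os07g05260 and 1.42 for LOC4351031, while the RNAi means minus WT were -0.42 and -0.56. The RNAi arrays of LOC4351031 lay below the arrays' lower quartile, so the size of its RNAi step is uncertain.

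In LOC4328907 on chromosome 2 (LOC_Os02g15460) the balance was the other way. It read 7.74, 7.91 and 7.96 in OE, 5.81, 5.68 and 5.15 in RNAi and 7.14, 6.56 and 6.95 in WT, with a step of 0.98 in OE and 1.34 in RNAi. LOC4349148 on chromosome 10 was even, at 9.74, 9.78 and 9.67 in OE, 8.20, 7.77 and 7.45 in RNAi and 8.68, 8.67 and 8.98 in WT. Os12g0290200, a locus from the study's annotation, read 7.52, 7.64 and 7.75 in OE, 6.21, 6.14 and 6.09 in RNAi and 7.26, 7.24 and 7.26 in WT, and stood out by tight WT arrays and a span that lay mostly in RNAi.

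Os11g0118400, a hypothetical protein in the study's annotation, read 9.62, 9.57 and 9.40 in OE, 7.32, 7.88 and 7.86 in RNAi and 8.66, 8.08 and 8.49 in WT, with OE 1.84 above RNAi. The member with the highest level was LOC9272622 on chromosome 2, with means of 13.02 in OE, 11.81 in RNAi and 12.44 in WT.

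The distance of each genotype from WT varied widely among members. The OE mean lay above WT by a median of 0.58 (range 0.095 to 3.23), and the RNAi mean differed from WT by a median of -0.45 (range -1.39 to -0.15). Both steps are measured from the same 3 WT arrays, so a high or low WT value moves them in opposite directions. The OE step made up a median of 56.7% of the whole span (quartiles 47.5% and 66.5%). It was the larger step in 83 members and the RNAi step was the larger in 43. It passed 75% of the span in 17 members and stayed under 25% in 5. At one end, LOC4350352 on chromosome 11 averaged 6.61 in OE, 5.58 in RNAi and 6.51 in WT, so that 9.23% of its span lay above WT. Its other probe set averaged 5.67 in OE, 5.32 in RNAi and 5.87 in WT, so that OE was below WT there. At the other end, a member with no annotation averaged 11.71 in OE, 10.38 in RNAi and 10.53 in WT, with 88.4% of its span above WT. The OE step passed 2-fold in 12 members and the RNAi step in 6.

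**Figure D2:**
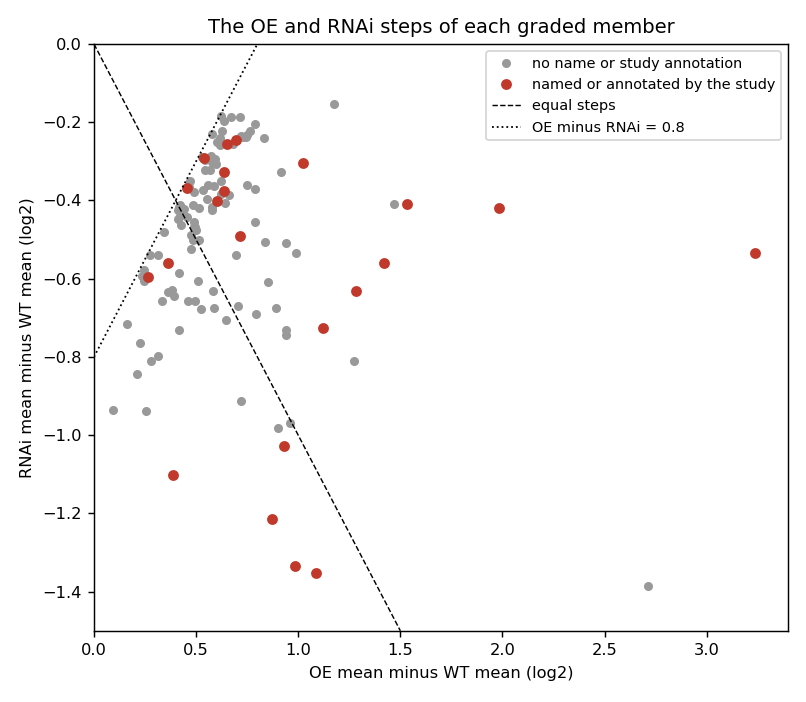
Each point is 1 of the 126 members, with the OE mean minus the WT mean on the horizontal axis and the RNAi mean minus the WT mean on the vertical axis, both in log2. Red points are named or study-annotated, the dashed line marks equal steps and the dotted line the size limit of 0.8. The OE step was the larger in 83 members, and only 2 points passed 2-fold in both directions.

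The order of the groups was often held by a narrow margin. In 36 members the arrays of neighbouring groups were more than 0.2 apart on both sides of WT, whereas in 26 members the smaller of the 2 gaps was under 0.05. In a linear model fitted with limma to all probe sets and all 9 arrays (Benjamini-Hochberg adjusted p under 0.05), 75 of the 126 members were called higher in OE than in WT, beside 1.25% of all probe sets, 27 were called lower in RNAi than in WT, beside 0.219%, and all 126 were called higher in OE than in RNAi, beside 3.14%. The rule used these contrasts, so the counts only describe how far the members stand from WT. A total of 13 members were called in each of the 3 comparisons, and 37 were called in neither comparison with WT. The 13 called in all 3 included the unannotated member of widest span, the retrotransposon LOC_Os01g26240, 2 probe sets of LOC4335780, OsRIBA2 and Os12g0290200. The rest of the 13 were LOC4328907, LOC4349148, LOC4349902, LOC4340672, LOC4338921 and another 2 members with no annotation. OsTPP1 was called lower in RNAi but not higher in OE than in WT, and so was not among the 13. The beta-amylase and LOC4341380 were among the 37 called in neither comparison with WT. With 1 array left out of the fit, 43 to 77 members were called in OE and 7 to 29 in RNAi, the lowest counts being those without WT replicate 2 and without WT replicate 3.

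The side of WT on which each transgenic array lay was set by the rule, so only the sizes are of interest here. The median deviation of the members from their WT means was 0.61, 0.52 and 0.65 on the OE arrays, -0.43, -0.47 and -0.48 on the RNAi arrays and -0.02, -0.02 and 0.04 on the WT arrays. Over all probe sets the same medians lay between -0.007 and 0.018. OE replicate 3 was the highest OE array in 64 members and OE replicate 2 the lowest in 67. The root mean square of the SDs was 0.250 in OE, 0.211 in RNAi and 0.134 in WT over the members, and 0.149, 0.179 and 0.127 in the same groups over all probe sets. The OE value over the members is weighted strongly by the beta-amylase, whose OE SD was 1.98. It therefore gives no ranking of OE above RNAi for the members in general.

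**Figure D3:**
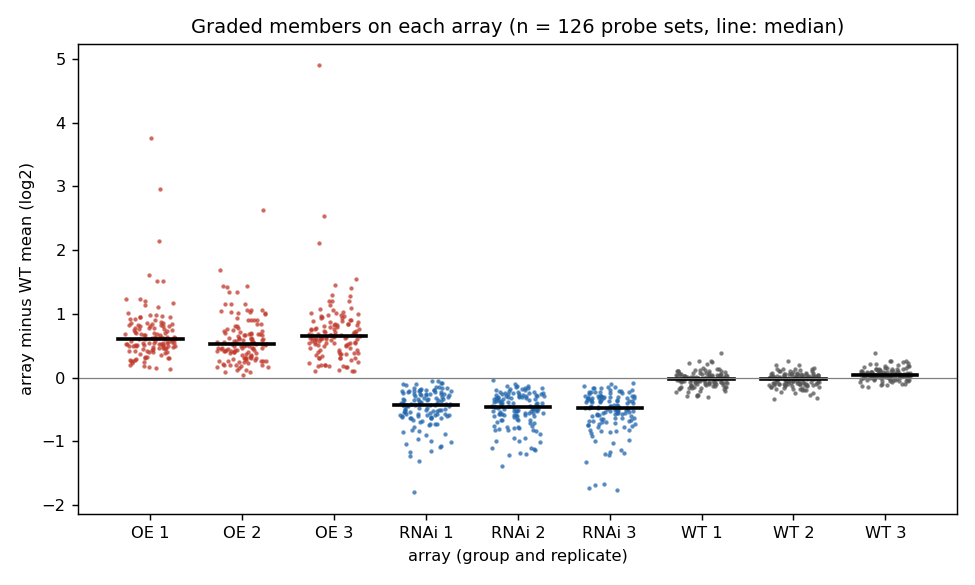
Deviation of the 126 members from their WT means on each array, in log2, with OE left, then RNAi and WT. The OE medians lay between 0.52 and 0.65 and the RNAi medians between -0.48 and -0.43, with their signs set by the choice of members.

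The opposite order was rarer at the same size. With the names left out in the same way, 70 probe sets had all RNAi arrays above all WT arrays and all WT arrays above all OE arrays. The other 4 orders of the 3 groups, with the highest and lowest group 0.8 apart, held 35 probe sets with OE highest and WT lowest, 17 with RNAi highest and WT lowest, 13 with WT highest and OE lowest and 8 with WT highest and RNAi lowest. These counts share the same arrays and were not tested against each other.

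Most members were expressed at a moderate to high level. Their WT means had a median of 7.38, against 5.89 for all probe sets, with 103 members above the median of all, 36 above the upper quartile and 3 below the lower quartile. In 7 members the RNAi mean was below the arrays' lower quartile, and in 11 the means of all groups lay under the array medians. Probe sets with the OsAffx prefix made up 17.5% of the members and 44.6% of all probe sets. Suffixes that mark probes shared between transcripts occurred in 21.4% of the members and 19.9% of all.

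The other probe sets of the member genes were not used to choose the members, although they were read on the same arrays. Of the 63 genes, 48 had a single probe set and 15 had several. In 6 genes at least 2 probe sets were members, namely LOC4335780, BGLU3, OsMac1, LOC4332750, LOC4351221 and LOC4352131. A further 23 probe sets of 13 member genes were not members. They are listed for the same genes as members, and some share a member's design number, so they are not independent of the members. OE exceeded RNAi in 20 of those 23, with a median difference of 0.45 (range -1.70 to 1.77), whereas over all probe sets the median was 0.00 and 50.9% were positive. Of the 23, 4 kept the full order and another 2 reached a difference of 0.8 without keeping it. For LOC4342991 on chromosome 7 the member differed by 1.20, and its other probe sets by 1.77, 0.50, 0.45 and 0.15.

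**Figure D4:**
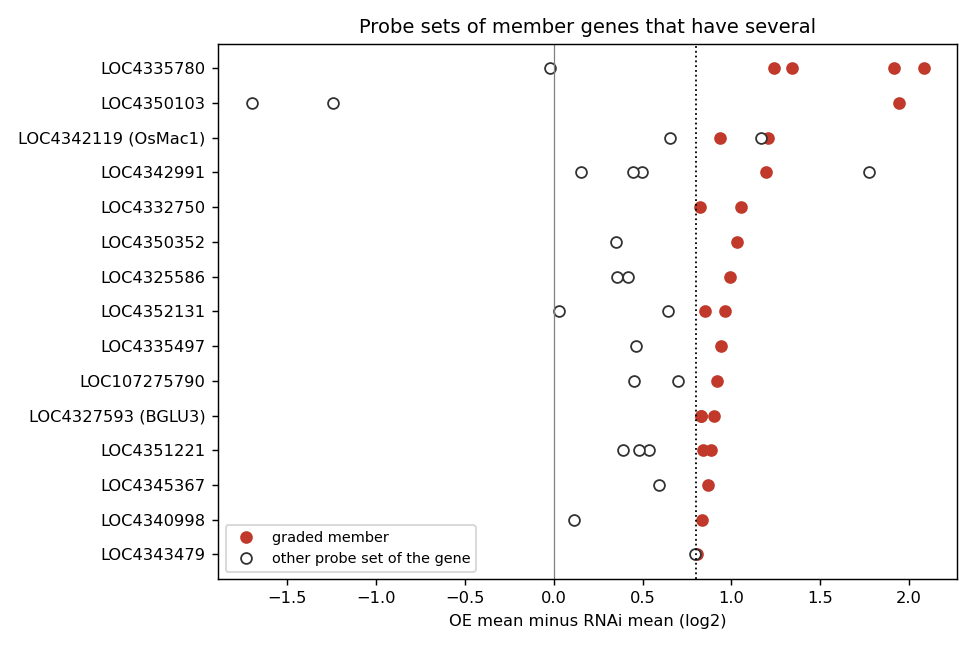
OE mean minus RNAi mean (log2) of each probe set of the member genes with several probe sets, with filled points for members, open points for the others and a dotted line at 0.8. Most open points lie above 0, at a median of 0.45, and those of LOC4350103 lie at -1.24 and -1.70.

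The member genes were spread over all 12 chromosomes. Chromosome 2 held 11 of the 63 genes (17.5%, against 11.9% of the array's placed genes) and chromosome 11 held 7 (11.1% against 4.72%). Chromosome 3 held 2 (3.17% against 13.7%), chromosome 1 held 6 (9.52% against 14.8%) and chromosome 10 held 1 (1.59% against 5.02%). With so few genes per chromosome these shares were not tested.

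**Figure D5:**
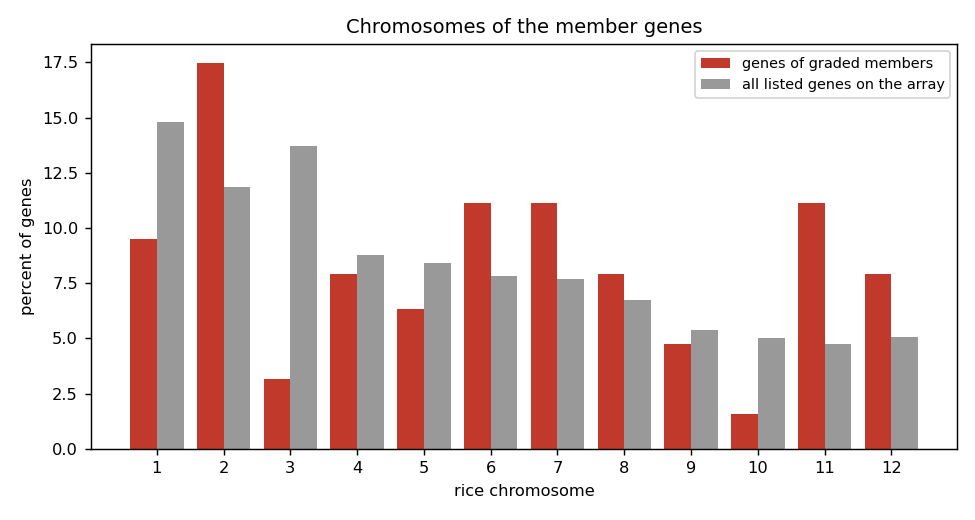
Share of the 63 member genes, beside the share of all genes on the array, on each of the 12 rice chromosomes, in percent. Chromosomes 2 and 11 held 17.5% and 11.1% of the member genes, and chromosome 3 held 3.17%.

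Members lay within 20 genes of each other in 2 places, both on chromosome 2. HSFA3 and LOC9272622 had 17 genes between them. LOC4328899 and LOC4328907 had 10 genes between them, and the genes read in that stretch did not move as a block. LOC4328899 averaged 8.24 in OE, 6.78 in RNAi and 7.38 in WT, and LOC4328907 averaged 7.87, 5.55 and 6.89 in the same groups. Between them, LOC4328900 was flat at 10.78 in OE, 10.74 in RNAi and 10.79 in WT, and LOC4328904 was lower in OE (5.11) than in RNAi (6.02) and WT (6.18). LOC4328903 (OsDOF7), of the DOF family of zinc finger transcription factors, was higher in both lines, with means of 7.67 in OE, 7.26 in RNAi and 3.62 in WT.

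Lists of stress and growth genes, made from gene names in the reference table, were read beside the members. Of 12 lists, the heat shock factors held the only member, HSFA3, 1 of 29 probe sets, beside 0.22% of all probe sets. At that share, lists of 9 to 74 probe sets would seldom hold a member, so their absence is no result about the lists. The heat shock factors had a median OE minus RNAi difference of 0.03 (range -0.68 to 1.30), with 16 of 29 above 0. The ethylene response factors held no member and had a median of 0.00 (range -1.03 to 2.47), with 10 of 19 above 0, and the only probe set of that list to keep the order was DREB1G, which was left out by name. The small heat shock proteins, which protect other proteins from clumping, had a median of 0.03 (range -0.64 to 1.33), with 14 of 26 above 0.

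The listed cytochrome P450 genes had a median of -0.11 (range -1.59 to 1.07), with 11 of 36 above 0. The list held no member because the P450 71D6 probe set described above has no listed gene and so was not in it. The meiosis and recombination genes had a median of 0.09 (range -0.41 to 1.04), with 15 of 18 above 0, and the photosynthesis genes a median of 0.06 (range -0.23 to 0.27), with 16 of 21 above 0. In the lists for clock genes, haemoglobins, replication and chromatin, phosphate starvation, nitrate and ammonium uptake and auxin response, no probe set was a member and the medians lay between -0.08 and 0.05. Over all probe sets the median was 0.00 and 50.9% lay above 0.

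Markers of cell types and organs were read beside the members. Leaf markers (17 probe sets of 7 genes) summed to between 17.14 and 17.26 in OE, 17.14 and 17.16 in RNAi and 17.14 and 17.18 in WT, as the log2 of the summed signal, so the RNA had high levels of leaf transcripts on every array. Meristem and dividing cell markers (13 probe sets) summed to 10.06 to 10.17 in OE, 10.13 to 10.26 in RNAi and 10.14 to 10.16 in WT. Pollen and anther markers (5 probe sets) summed to 6.54 to 6.57 in OE, 6.63 to 6.67 in RNAi and 6.45 to 6.49 in WT. Root markers (4 probe sets) summed to 8.48 to 8.55 in OE, 8.30 to 9.48 in RNAi and 8.29 to 8.57 in WT. The spread in RNAi came from NAS1, a nicotianamine synthase of iron transport, with means of 4.24 in OE, 6.85 in RNAi and 4.95 in WT, and the part of root RNA in the members' values was not tested. None of the marker lists held a member. Root, pollen and meristem markers were dim, with median WT means of 5.02, 3.99 and 5.28. In leaf RNA, fewer cells of a type and less RNA per cell cannot be told apart.

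The size limit cut through a continuous range. Just inside it were LOC4343479 and a member with no annotation, each with OE 0.806 above RNAi, and LOC4351471 with 0.812. Just outside it, with the order kept, were LOC4326376 with 0.798, LOC4328098 with 0.791 and LOC4332158 with 0.790.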

How the data were processed

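The authors deposited 1 table of log2 values for 9 arrays (3 OE, 3 RNAi and 3 WT), and their processing notes name RMA (version not given in the sources used here), which corrects the background, quantile-normalizes the arrays and summarises each probe set. RMA compresses low levels, and array number limits precision because no depth applies. The table held 57381 probe sets, and 187 of these are Affymetrix controls or reporters that entered no test.

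The members and the gene lists were chosen with earlier results of these data known. Groups came from the labels. Means and SDs are over 3 arrays. Group means over the 9 arrays were fitted together with limma 3.58.1 in R 4.3.3 (lmFit and eBayes, 6 residual and 3.78 prior degrees of freedom), with Benjamini-Hochberg adjustment over 57194 probe sets and a threshold of 0.05. p-values measure the spread between pools of seedlings. Fitting was tested on simulated data. Genes came from the platform annotation, with names from a reference table of assembly ASM3414082v1, and no sequence or position is printed. Named genes were all members with a gene name, the 12 widest differences, those with an annotation in the study, members next to the size limit or to each other, and other probe sets of these genes. The ends of ranges were named by their values. Members with no gene or locus are described without an identifier. Alternatives changed the centring, the filter, the fold, the variance moderation, the arrays fitted and the replicate block.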

Additional observations from a re-analysis of the deposited data

Results flagged for a closer look

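One reporter probe set, left out of all comparisons above, gave a signal in both transgenic lines that was far above WT. It averaged 13.2 on the OE arrays, 10.7 on the RNAi arrays and 4.18 on the WT arrays, and the lowest of the 6 transgenic arrays was 5.84 above the highest WT array. It follows the order OE, RNAi, WT and so differs from the order of the 126 members. None of the control and reporter probe sets was graded.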

How the results depend on the processing

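The 126 graded probe sets became 228 with a size limit of 0.6 and 59 with a limit of 1. Leaving out 1 array gave 128 to 191, of which 110 to 126 were among the 126, with 191 without RNAi replicate 1. The order is easier to keep with fewer arrays, so the rule itself favours higher counts here. Without a WT array no member can be lost, so the 126 shared in those settings was fixed in advance. Centring each array gave 122 (116 shared), brighter probe sets only 102, no shared-probe suffixes 99, and keeping the excluded names 132.

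Calls depended on the fit. Calls between OE and WT (1680) fell to 209 over 2-fold, to 731 without variance moderation and to 937 with the replicate block, and ranged from 527 to 1939 with 1 array left out (664 when OE replicate 1 was dropped, and 926, 579 and 527 when WT replicates 1, 2 and 3 were). Centring moved the higher share of these calls to 32.6% from 42.6%. The share was 35.4% with brighter probe sets only, 63.2% over 2-fold and 41.2% to 53.3% with 1 array left out, so the balance of directions depended on the setting. Calls between RNAi and WT (274) became 109 over 2-fold, 69 unmoderated, 167 with only the 6 arrays compared and 209 with the block, and 118 to 512 with 1 array left out (512 and 141 when RNAi replicates 1 and 2 were dropped, 139 and 118 when WT replicates 2 and 3 were). Calls between OE and RNAi (3521) became 432, 1623, 1805 and 2455 in the same order, and 1693 to 4141 with 1 array left out (1693 and 2238 when OE replicates 1 and 3 were dropped, 1881 when RNAi replicate 2 was).

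Among the members, 75 calls above WT in OE became 11 over 2-fold, 37 unmoderated, 62 with the block and 43 to 77 with 1 array left out (44 without OE replicate 1, 43 without WT replicate 2, 48 without WT replicate 3). The 27 calls below WT in RNAi became 5 over 2-fold, 4 unmoderated, 8 with 6 arrays, 18 with the block and 7 to 29 with 1 array left out (14 without OE replicate 1, 10 without RNAi replicate 2, 15 without WT replicate 2, 7 without WT replicate 3). The 126 calls between OE and RNAi became 59 over 2-fold, 109 unmoderated and 123 to 126 with 1 array left out.

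Of the 25 named differences, the beta-amylase moved most with 1 array left out, by up to 1.09. Their direction is set by the rule, and leaving out a WT array or adding the block cannot move them. Replicate numbers were checked on deviations, with each group's mean subtracted from its arrays. These deviations correlated between -0.328 and 0.116 for same-numbered arrays of different groups. On them 0 of 9 arrays correlated best with their own number, so the numbers were not taken as pairs.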
